A study of Homo sapiens with 8 samples.

Results

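The genes described here are ZIC1, ZIC2, ZIC4 and ZIC5, 4 of the 34792 genes to which transcript reads were summed, chosen by family name from A673/TR/shFEZF1 cells after a change of ZIC5 between the doxycycline and control cultures had been seen. The doxycycline comparison therefore selected them, and their values in it are given as a description without a test. The cell line A673 was derived from an Ewing sarcoma with the EWSR1-FLI1 fusion. All 8 cultures carried a tetracycline repressor, from 1 clone of the repressor line, and a cassette from which doxycycline releases an shRNA against FEZF1, a transcription factor of the developing forebrain. The 4 control cultures received no doxycycline and the 4 doxycycline cultures received 1 µg/mL for 72 h, and the polyclonal population, clone 3, clone 5 and clone 6 each gave 1 control and 1 doxycycline culture. Each of these 3 clones is 1 isolate, no culture received doxycycline without the FEZF1 shRNA, and so the drug and the knockdown cannot be told apart. The 2 cultures of an origin hold the same cells and were compared as a pair.

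ZIC proteins are zinc finger transcription factors named after their discovery in the cerebellum, and their finger domain is related to that of the GLI factors that carry Hedgehog signals. They act early in the neural plate, neural crest and dorsal neural tube, where they hold cells in a progenitor state and pattern the brain. Loss of ZIC2 is known to cause holoprosencephaly, and joint loss of ZIC1 and ZIC4 has been linked to Dandy-Walker malformation of the cerebellum. The genes lie in the genome as pairs that point away from each other, each pair sharing the stretch between its starts.

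ZIC5 and ZIC2 form 1 of these pairs. In GENCODE release 44 (GRCh38), the protein-coding gene ZIC5 (ENSG00000139800.9) lies on chromosome 13 from 99962964 to 99971767 on the minus strand, and ZIC2 (ENSG00000043355.12) lies from 99981784 to 99986765 on the plus strand, so 10016 bases separate their starts. ZIC4 (ENSG00000174963.18) lies on chromosome 3 from 147386046 to 147406809 on the minus strand, overlapping ZIC1 (ENSG00000152977.10), which runs from 147393422 to 147510293 on the plus strand. This overlap of 13388 bases is in GENCODE only: the RefSeq gene models, whose transcripts carry the reads, leave 2821 bases between the pair. The libraries were stranded, and whether the counting used the strand is not given in the sources used here.

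The promoter windows of ZIC2 and ZIC5 are shown because both genes were lower with doxycycline. They were taken from RefSeq (GRCh38.p14) and hold the 250 bases before and 50 bases after an annotated start, and all 4 members had at least 1 window. Capitals mark the letters CCAAT or their reverse complement ATTGG, the CCAAT box of many promoters. The ZIC2 window lies at chr13:99981534-99981833 on the plus strand. The first ZIC5 window lies at chr13:99971718-99972017 and the second at chr13:99969123-99969422, both on the minus strand.
ZIC2: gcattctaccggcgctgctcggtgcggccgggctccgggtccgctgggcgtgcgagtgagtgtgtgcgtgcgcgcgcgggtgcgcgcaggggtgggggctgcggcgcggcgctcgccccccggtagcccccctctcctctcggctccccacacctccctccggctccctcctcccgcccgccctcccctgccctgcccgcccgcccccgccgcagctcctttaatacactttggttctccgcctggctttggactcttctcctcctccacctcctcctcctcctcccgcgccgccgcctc
ZIC5, start at 99971767: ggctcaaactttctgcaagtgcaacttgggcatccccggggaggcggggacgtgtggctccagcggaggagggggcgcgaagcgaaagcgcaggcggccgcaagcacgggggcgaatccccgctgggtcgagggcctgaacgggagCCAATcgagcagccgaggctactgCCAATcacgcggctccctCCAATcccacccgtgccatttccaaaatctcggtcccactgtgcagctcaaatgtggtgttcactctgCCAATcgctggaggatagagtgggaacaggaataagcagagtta
ZIC5, start at 99969172: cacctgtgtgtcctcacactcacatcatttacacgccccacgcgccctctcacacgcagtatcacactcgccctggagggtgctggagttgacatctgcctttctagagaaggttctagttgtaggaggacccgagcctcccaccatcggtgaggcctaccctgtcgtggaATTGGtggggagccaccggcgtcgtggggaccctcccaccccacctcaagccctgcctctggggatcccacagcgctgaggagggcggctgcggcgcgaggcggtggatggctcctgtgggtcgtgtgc

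The letters CCAAT, read on both strands, occurred 4 times in the window of the ZIC5 start at 99971767, and did not occur in the ZIC2 window. At least 1 match was present in 34.6% of 35116 RefSeq windows and 3 or more in 3.26%. A further ZIC5 window, at chr13:99971860-99972159, overlapped the first and held 1 match. The ZIC1 window held 2 matches, and the ZIC4 windows held between 0 and 3. The GGAA repeat GGAAGGAA, a form bound by EWSR1-FLI1, and the GLI site TGGGTGGTC had no match in any ZIC2 or ZIC5 window on either strand, and were present in 3.67% and 0.236% of all windows. The ZIC2 window was 75% G and C with 35 CG dinucleotides, and the ZIC5 window at 99971767 was 62% with 22, against medians of 58.7% and 14 over all windows. The matches are a description of these letters and no binding was measured here.

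The libraries held 26719886 to 42422421 reads assigned to transcripts, and 89.9% to 91.1% of them were matched to a gene symbol. FEZF1, the target of the shRNA, was at 96.4, 70.5, 107 and 74.4 CPM (gene counts relative to library size, scaled by edgeR's TMM method) in the polyclonal, clone 3, clone 5 and clone 6 controls and at 60.6, 43.0, 60.8 and 36.4 CPM with doxycycline. It was lower in 4 of 4 pairs and fell by 0.81 on the log2 scale (SE 0.07, edgeR's quasi-likelihood test with origin in the model, Benjamini-Hochberg adjusted p = 0.00594, or 0.29 without origin in the model). DESeq2 without origin in the model gave FEZF1 an adjusted p of 0.015. The FEZF1 sum holds transcripts with unlike estimated changes. As CPM of all assigned reads, NM_001024613.4 was at 52.3 ± 12.2 without and 23.9 ± 7.55 with doxycycline (SD, n = 4). The predicted XM_011516202.2 was at 25.8 ± 5.37 and 21.7 ± 4.49. FEZF1-AS1, the antisense gene of FEZF1, was higher in 4 of 4 pairs (log2 fold change 0.45, SE 0.08, adjusted p = 0.0190 in edgeR's test with origin). The call was lost without clone 3, 5 or 6 (adjusted p between 0.0610 and 0.100) and without origin in the model (0.675). Over all genes tested, 15.9% were lower and 17.3% higher in 4 of 4 pairs. By RT-qPCR, the study saw no effect of FEZF1 knockdown on FEZF1-AS1. If reads were counted without strand, those from any overlap of the 2 genes could be assigned to either, which was not tested. All 8 Ewing sarcoma markers checked, among them NR0B1 and NKX2-2, had a median above 1 TPM (transcripts scaled by length and depth), whereas the T cell marker CD3E and the endothelial marker CDH5 were at 0 in the 8 libraries. Other markers were less clean and were mixed within a type. The epithelial marker KRT18 was between 100 and 260 TPM. KRT8, EPCAM and CDH1 had medians of 4.99, 0.626 and 0.121 TPM over the 8 libraries. The blood marker HBB was between 16.7 and 36.5 TPM, and PTPRC had a median of 0.0208 TPM. The 5 fibroblast markers together were between 75.1 and 920 TPM in the controls and between 115 and 915 TPM with doxycycline. Most of that sum was collagen, with medians of 101 TPM for COL1A1 and 238 TPM for COL1A2. DCN, LUM and PDGFRA had medians of 3.99, 1.21 and 0.830 TPM. The part of these markers in the results was not tested.

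Compared per length as TPM, ZIC2 was the highest of the 4 members, followed by ZIC5, ZIC1 and ZIC4. ZIC2 was at 39.8 ± 3.47 TPM in the controls (SD, n = 4) and ZIC5 at 10.7 ± 0.92 TPM. ZIC1 was at 0.576 ± 0.255 TPM and ZIC4 at 0.260 ± 0.0831 TPM. The ZIC2 and ZIC5 levels did not overlap in any culture, and both lay above all levels of ZIC1 and ZIC4. ZIC1, from 0.223 to 0.771 TPM, and ZIC4, from 0.181 to 0.356 TPM, overlapped in the controls and their order did not exceed the spread between cultures. In the doxycycline cultures the same order of means was found, at 26.0 ± 6.76, 6.34 ± 1.67, 0.680 ± 0.327 and 0.254 ± 0.145 TPM. The reads behind these levels differed widely: 817 to 2551 per library for ZIC2 and 239 to 845 for ZIC5, but 21 to 83 for ZIC1 and 10 to 37 for ZIC4, so changes of the last pair could only be seen if large.

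**Figure D1:**
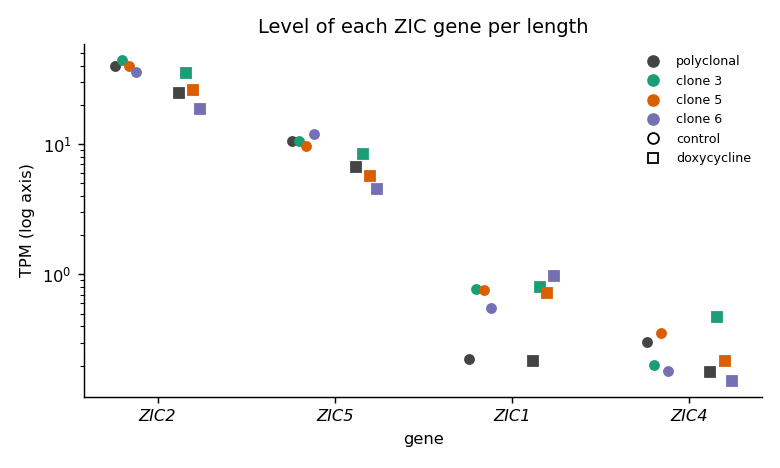
TPM (log axis) of each ZIC gene in the 4 control cultures (circles) and the 4 doxycycline cultures (squares), coloured by origin. ZIC2 and ZIC5 form separate bands, with control means of 39.8 and 10.7 TPM, and the points of ZIC1 and ZIC4 lie below 1 TPM and overlap.

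With doxycycline, ZIC5 and ZIC2 were lower in every origin, while ZIC1 and ZIC4 showed no common direction. ZIC5 was at 21.4, 22.9, 21.6 and 25.5 CPM in the polyclonal, clone 3, clone 5 and clone 6 controls and at 12.8, 17.5, 12.1 and 10.1 CPM with doxycycline. Every doxycycline culture lay below every control culture, with clone 3 the least and clone 6 the most reduced. The control mean was 22.8 ± 1.92 CPM and the doxycycline mean 13.1 ± 3.13 CPM (SD, n = 4), so the latter was 57.5% of the control level and the fitted log2 fold change was -0.82 (SE 0.14).

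ZIC2 was at 64.6, 76.4, 70.0 and 64.0 CPM without doxycycline and at 40.5, 57.9, 45.2 and 34.4 CPM with it, in the same order of origins. These groups did not overlap either, and clone 3 again kept the highest doxycycline level and clone 6 the lowest. The control mean was 68.7 ± 5.80 CPM and the doxycycline mean 44.5 ± 9.99 CPM, a doxycycline level of 64.7% of the control level, with a fitted log2 fold change of -0.65 (SE 0.08). In the model with origin, 2 of the 4 members were called lower at an adjusted p under 0.05 and 0 higher. Of all 15993 genes tested, 3.91% were called lower and 3.73% higher, and 2.29% had all doxycycline cultures below all controls. Of the same genes, 15.9% were lower in 4 of 4 pairs. Since this comparison chose the members, nothing is read from their count. Without origin in the model 0 members were called, and only 1 of all genes.

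ZIC1, a factor of the dorsal neural tube and cerebellum, was at 0.658, 2.43, 2.43 and 1.81 CPM without doxycycline and at 0.645, 2.41, 2.29 and 3.32 CPM with doxycycline. It differed little within 3 origins and was higher with doxycycline in clone 6, and its groups overlapped. The fitted log2 fold change was 0.19 (SE 0.23), and without clone 6 it was -0.04. ZIC4, its neighbour, was at 0.658, 0.473, 0.907 and 0.442 CPM without doxycycline and at 0.430, 1.08, 0.531 and 0.421 CPM with doxycycline. It was higher with doxycycline in clone 3 and lower in the other origins, with a fitted log2 fold change of -0.05 (SE 0.38), which was -0.52 without clone 3, 0.14 without the polyclonal population and 0.19 without clone 5. At 10 to 37 reads a library, no direction could be given for ZIC4.

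**Figure D2:**
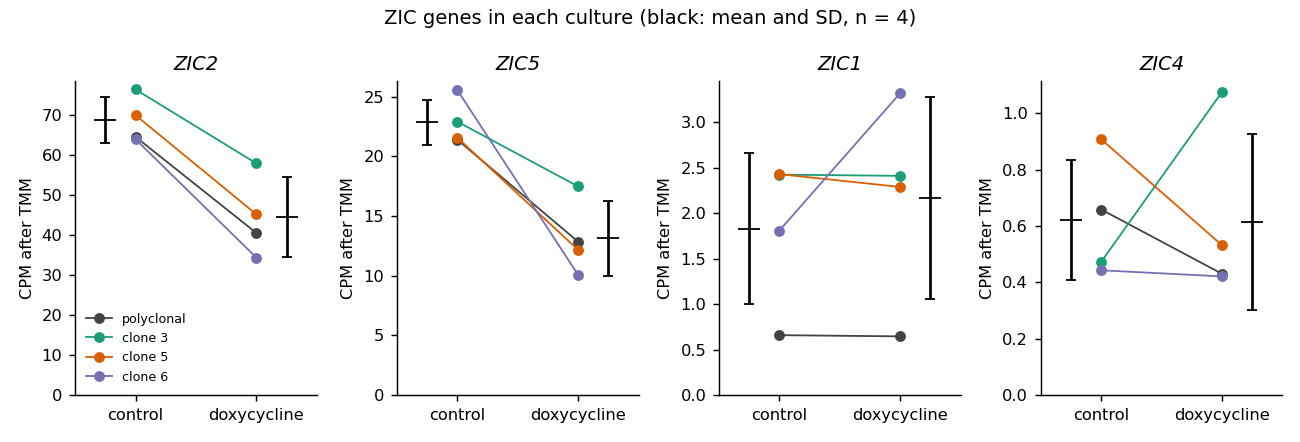
CPM after TMM scaling of ZIC2, ZIC5, ZIC1 and ZIC4 in each culture, with lines joining the control and doxycycline cultures of an origin and black marks for the mean and SD (n = 4). The lines of ZIC2 and ZIC5 all point down and their groups do not overlap, whereas those of ZIC1 and ZIC4 point both ways and their groups overlap.

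Within origins, the log2 difference of ZIC5 (doxycycline minus control) was -0.74 in the polyclonal population, -0.39 in clone 3, -0.83 in clone 5 and -1.34 in clone 6. That of ZIC2 was -0.67, -0.40, -0.63 and -0.90. In both genes clone 3 had the smallest and clone 6 the largest difference. FEZF1 itself differed by -0.67, -0.71, -0.82 and -1.03 in the same origins, so clone 3 was not its least reduced origin. These values stand side by side without a correlation, since 4 origins are too few for one.

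**Figure D3:**
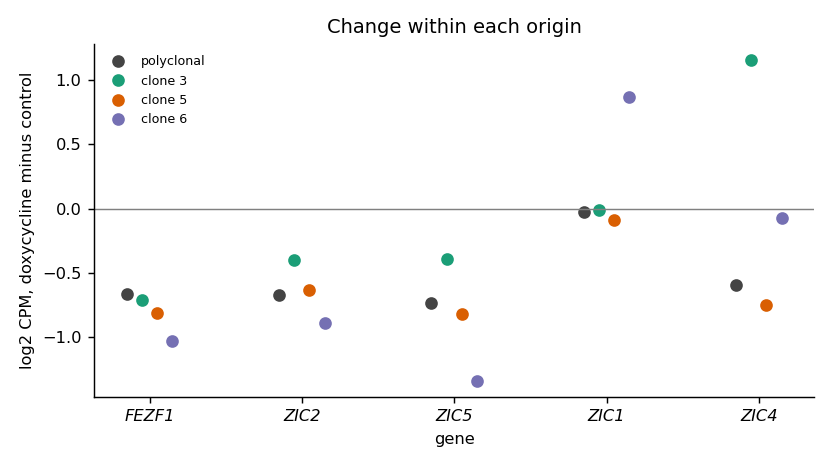
Log2 CPM of the doxycycline culture minus that of the control culture in each origin, for FEZF1 and the 4 ZIC genes. All points of FEZF1, ZIC2 and ZIC5 are below 0, clone 3 is the highest and clone 6 the lowest of the ZIC2 and ZIC5 points, and the points of ZIC1 and ZIC4 lie on both sides of 0.

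Whether ZIC5 and ZIC2 changed by the same amount was looked at through their ratio within each culture, which is free of library scaling. In CPM, ZIC5 was 33.5% ± 4.51 of ZIC2 without doxycycline and 29.5% ± 1.998 with it (SD over 4 cultures). The log2 ratio of ZIC5 to ZIC2 differed between doxycycline and control by -0.06 in the polyclonal population, 0.01 in clone 3, -0.19 in clone 5 and -0.45 in clone 6. Its mean was -0.17 with an SD of 0.20 over the 4 origins, so the difference was within the spread between origins. The largest part came from clone 6, and the mean was -0.08 without that clone.

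The shapes of the members over the 8 libraries were compared by the root mean square difference of log2 CPM, each gene centred on its own mean. ZIC2 and ZIC5 differed by 0.156, and every other pair of members differed by 0.465 to 1.00. The measure holds the doxycycline differences that chose the members, and every other pair holds ZIC1 or ZIC4, with 10 to 83 reads a library, so nothing is read from this order. For 11 other tested genes the difference from ZIC2 was smaller than that of ZIC5. The 5 genes that are not members and were nearest to ZIC5 were QSER1 (0.127), MBD2 (0.160), RBL1 (0.162), FMR1 (0.171) and NABP2 (0.181). MBD2 binds methylated DNA, RBL1 is a relative of the retinoblastoma protein, FMR1 encodes an RNA-binding protein of neurons, and NABP2 binds single-stranded DNA. Nearest to ZIC2 were PRSS12 (0.0862), a neuronal serine protease, ARHGAP27P1-BPTFP1-KPNA2P3 (0.119), ZNF614 (0.119), SOCS4 (0.119) and RHOBTB2 (0.148). The second of these is a transcribed pseudogene locus that can share reads with its parent genes. All 10 were lower with doxycycline in 4 of 4 pairs, which follows from their choice by likeness to ZIC5 or ZIC2.

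Reads of ZIC5 were split over 3 annotated transcripts. The coding transcript NM_033132.4 was at 8.37, 7.2, 8.91 and 6.43 CPM of all assigned reads in the polyclonal, clone 3, clone 5 and clone 6 controls, and at 3.38, 5.92, 3.88 and 2.71 CPM in their doxycycline cultures. The non-coding transcript NR_146225.1 was at 10.3, 10.6, 10.1 and 14.3 CPM without and at 7.96, 8.39, 6.19 and 5.61 CPM with doxycycline. Both were lower in every origin and neither overlapped between groups. This comparison chose ZIC5 and no share over all transcripts was taken, so nothing is read from that. NM_033132.4 took 37.9% ± 7.39 of the gene's control reads and 32.9% ± 4.23 of its doxycycline reads (SD over 4 cultures), NR_146225.1 took 54.8% ± 5.74 and 59.9% ± 6.26, and the shares overlapped within the SD. NR_146224.1 was at 1.495 ± 0.676 CPM and 0.879 ± 0.421 CPM. The split between transcripts that share exons is an estimate, so these values carry more error than the gene's sum.

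**Figure D4:**
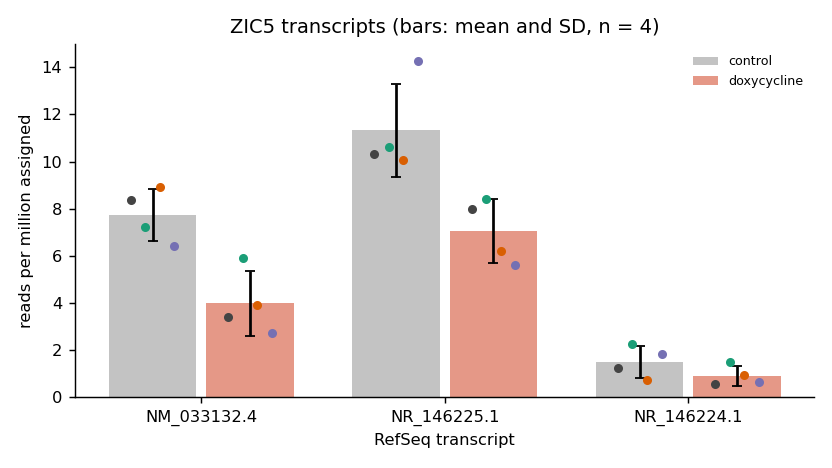
CPM of all assigned reads for the 3 RefSeq transcripts of ZIC5, with bars for the mean, error bars for the SD (n = 4) and points for the cultures coloured by origin (grey polyclonal, green clone 3, orange clone 5, purple clone 6). NM_033132.4 and NR_146225.1 are lower in all 4 doxycycline cultures, while the groups of NR_146224.1 overlap.

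ZIC1 and ZIC2 had 1 transcript each, NM_003412.4 and NM_007129.5, whereas ZIC4 had 8. The predicted ZIC4 transcript XM_017007314.2 was the only one with reads in all 8 libraries, 5.74 to 16 of them, and carried 48.7% ± 11.3 of the gene's reads in the controls. NR_033118.2, NR_033119.2 and NM_001168378.1 were at 0 in all libraries, which at 3 counts allows 0.0707 to 0.112 CPM, for counting error only. Which ZIC4 transcript was used could therefore not be told at this depth.

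Levels between origins were not used to choose the members, so they were tested. In a first run on simulated data, with a separate spread for each gene, this test gave more false calls than its threshold allows. Its adjusted p-values may therefore be too small. ZIC1 differed between origins in the model with treatment (edgeR's quasi-likelihood F-test, Benjamini-Hochberg adjusted p = 0.0123). Its mean over the 2 cultures was 0.651 CPM in the polyclonal population, 2.42 in clone 3, 2.36 in clone 5 and 2.57 in clone 6. All 6 clone cultures lay above both polyclonal cultures, by 1.88 (SE 0.34), 1.85 (SE 0.34) and 1.94 (SE 0.34) on the log2 scale, and 7.85% of the tested genes spanned a wider range. Among the 3 clones alone, without the polyclonal population, the adjusted p was 0.973, so the difference rested on that population.

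ZIC2 also passed, narrowly (adjusted p = 0.0418 in the same F-test). Its mean was 52.5 CPM in the polyclonal population, 67.2 in clone 3, 57.6 in clone 5 and 49.2 in clone 6, with clone 3 above the polyclonal population by 0.38 (SE 0.12) and clone 6 at -0.12 (SE 0.12) on the log2 scale. The call was lost when any 1 origin was left out, with adjusted p between 0.0523 and 0.156 (edgeR), and with curated transcripts alone (0.0753). ZIC5, with means from 16.9 to 20.2 CPM, did not pass (adjusted p = 0.453), nor did ZIC4, with means from 0.431 to 0.774 CPM (adjusted p = 0.505). Thus 2 of 4 members were called between origins, beside 39.4% of all genes tested, so the count is no result about the members. Each origin stands on 1 control and 1 doxycycline culture, and nothing in the labels separates culture from origin within a treatment.

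Relatives and partners of the ZIC genes were followed through lists of known members. In these lists and those of neighbours below, genes that rose or fell are those called higher or lower at an adjusted p under 0.05. Over all genes tested, 3.91% were called lower and 3.73% higher. Of the GLI and GLIS factors, 5 of 6 were tested, 1 fell and 0 rose, with a median log2 fold change of -0.28 beside 0.00 over all genes tested. The gene that fell was GLI1, a transcriptional activator and target of Hedgehog signalling, at 16.2 ± 3.30 CPM without and 9.91 ± 4.21 CPM with doxycycline (log2 fold change -0.77, SE 0.15, edgeR adjusted p = 0.0268), lower in 4 of 4 pairs. The call was lost without clone 3, 5 or 6 (adjusted p between 0.0813 and 0.116). GLI2 had a log2 fold change of -0.33, GLI3 of -0.16 and GLIS2 of -0.28, and none of them passed. GLIS3 went the other way, at 0.638 ± 0.737 CPM without and 2.14 ± 0.920 CPM with doxycycline (log2 fold change 2.25, SE 0.90, edgeR adjusted p = 0.174), higher in 4 of 4 pairs and not past the test. Of all genes tested, 17.3% were higher and 15.9% lower in 4 of 4 pairs. Of 16 Hedgehog pathway genes, 13 were tested, 1 fell and 0 rose, with a median of 0.00. It was GAS1, a co-receptor for Hedgehog ligands (log2 fold change -0.25, SE 0.06, adjusted p = 0.0449), a call lost without any 1 origin (adjusted p from 0.0628 to 0.178). The receptor PTCH1, itself a Hedgehog target, had a log2 fold change of -0.09 and SMO, the signal transducer, of 0.12. The ligand genes SHH, DHH and IHH were too low to be tested, with at most 2, 14 and 2 reads in any library.

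Of 23 factors of the neural plate border and neural crest, the region in which ZIC genes are known to act, 21 were tested, 4 rose and 1 fell, with a median log2 fold change of 0.20 beside 0.00 over all genes tested, of which 3.73% were called higher and 3.91% lower. TFAP2B, a neural crest factor, rose from 3.73 ± 1.49 to 10.3 ± 2.53 CPM (log2 fold change 1.49, SE 0.19, edgeR adjusted p = 0.00861). MSX1 rose by 0.53 (SE 0.11, adjusted p = 0.0339) and TWIST1 by 0.32 (SE 0.07, adjusted p = 0.0372), and both are transcription factors of the crest and its mesenchyme. DLX5 fell by 0.30 on the log2 scale (SE 0.06, adjusted p = 0.0262). The fourth gene that rose was MYC, a growth regulator named after its values were seen (log2 fold change 0.26, SE 0.06, adjusted p = 0.0442), a call lost without any 1 origin (adjusted p from 0.0768 to 0.222). TFAP2B kept its call when any 1 origin was left out and lost it with curated transcripts alone (adjusted p = 0.104). DLX5 and TWIST1 lost theirs without any 1 origin, with adjusted p from 0.0563 to 0.0980 and from 0.0529 to 0.185, and MSX1 without the polyclonal population, clone 5 or clone 6 (0.0752, 0.145 and 0.119).

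Of 14 neural progenitor factors, 8 were tested, 1 fell and 0 rose, with a median of -0.07. Over all genes tested, 3.91% were called lower and 3.73% higher. The gene that fell was NES, the intermediate filament of progenitor cells, at 107 ± 70.2 CPM without and 75.1 ± 49.7 CPM with doxycycline (log2 fold change -0.54, SE 0.06, edgeR adjusted p = 0.00729). It was lower in 4 of 4 pairs, as were 15.9% of all genes tested. Each group had an SD larger than the difference of the means. That SD holds the spread between origins, which the model with origin takes out. The call was kept when any 1 origin was left out (adjusted p from 0.0151 to 0.0403) and with curated transcripts alone (0.0255). Without origin in the model it was lost (0.998). SOX2, at a log2 fold change of -0.10, and OTX2, at 0.01, did not pass.

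The genes around the ZIC2 and ZIC5 pair were set beside it. Of the 10 nearest protein-coding genes, 5 on each side, 7 were tested, 2 fell and 0 rose, with a median log2 fold change of -0.17 beside 0.00 over all genes tested. Over all genes tested, 3.91% were called lower and 3.73% higher. On the ZIC5 side, CLYBL lay 53.5 kb away with a log2 fold change of -0.45 (SE 0.24), and TM9SF2 lay 399 kb away with 0.05 (SE 0.06). On the ZIC2 side, PCCA, a subunit of a mitochondrial carboxylase, lay 102 kb away and fell by 0.35 on the log2 scale (SE 0.08, edgeR adjusted p = 0.0427), and GGACT lay 543 kb away with -0.17 (SE 0.19). The other gene that fell was TMTC4, 617 kb away (log2 fold change -0.52, SE 0.13, adjusted p = 0.0484). Both calls were lost without any 1 origin, with adjusted p from 0.0565 to 0.161 for PCCA and from 0.0756 to 0.180 for TMTC4. The fitted values of ZIC2 and ZIC5 were below those of all 7 tested neighbours, but the pair was chosen on this comparison and the neighbours were not, so nothing is read from that order.

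**Figure D5:**
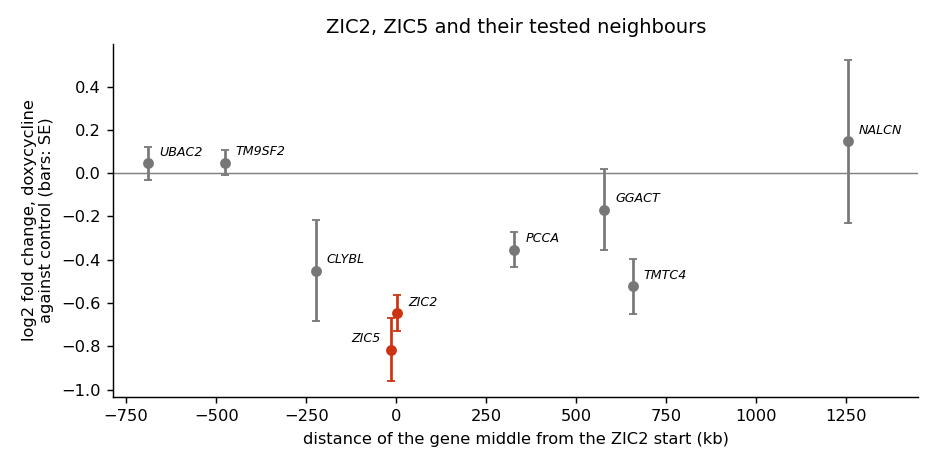
Log2 fold change with doxycycline (error bars: SE) of ZIC2, ZIC5 (red) and their 7 tested neighbours (grey) against the distance of the middle of each gene from the ZIC2 start in kb. ZIC5 and ZIC2, at -0.82 and -0.65, are the lowest points, and TMTC4 at -0.52 is the next.

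Around ZIC1 and ZIC4, 5 of the 10 nearest protein-coding genes were tested, 1 rose and 0 fell, with a median log2 fold change of 0.25 and 4 of the 5 above 0. Over all genes tested, 3.73% were called higher and 3.91% lower. The gene that rose was HLTF, a DNA repair helicase, 1520 kb away (log2 fold change 0.29, SE 0.05, edgeR adjusted p = 0.0244), a call lost without any 1 origin (adjusted p from 0.0628 to 0.1000). The nearest genes, PLSCR5 at 781 kb and AGTR1 at 1187 kb, had at most 0 and 2 reads in a library, as had CPB1 with 0, and PLSCR1, a phospholipid scramblase, had a log2 fold change of -0.06 (SE 0.15). PLSCR4, at 0.60 (SE 0.22), and GYG1, at 0.25 (SE 0.12), were higher in 4 of 4 pairs and did not pass. That pattern was found in 17.3% of all genes tested. Without origin in the model, none of the listed genes that rose or fell passed edgeR's test (adjusted p from 0.238 to 0.998). DESeq2 without origin called only TFAP2B of them (adjusted p = 0.00158). The lists were chosen with earlier results of these cells known, and their counts describe the lists alone.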

How the data were processed

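RNA from 8 A673/TR/shFEZF1 cultures was sequenced from stranded mRNA libraries. Per the labels and the study's methods, the authors quantified reads with Salmon on GRCh38 RefSeq transcripts and deposited the estimated count and TPM of each of 158867 transcripts per library. They also deposited a DESeq2 table (version 2.11.40.6 per the submitters' processing notes). Its mean of normalised counts over all libraries is a signal, and the authors' values were 60.7 for ZIC1, 1710 for ZIC2, 18.6 for ZIC4 and 543 for ZIC5. Its fold changes, errors, statistics and p-values were not used. The clone 5 control file was written in another row order and precision than the other 7.

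Of the transcripts, 115325 (72.6%) were matched to a symbol through RefSeq and their expected counts summed to 34792 genes and rounded. Sums were filtered with filterByExpr, scaled by TMM and fitted across all 15993 genes with edgeR 4.0.16 (quasi-likelihood, R 4.3.3) with origin and treatment in the model and Benjamini-Hochberg adjustment at 0.05. A standard error is the absolute log2 fold change over the root of F. Log2 CPM used a prior count of 0.5. TPM as deposited was summed per gene for levels only. The fit was tested on simulated data drawn with trended dispersions, a setting chosen after a first run with gene-wise dispersions gave more false calls than the threshold allows in the test between origins. Alternatives were DESeq2 1.42.0, DESeq2's size factors, no origin in the model, other filters on low counts, an effective length offset, curated transcripts alone and leaving out each origin. Python 3.11.15 and pandas 2.3.3 were used.

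Pairing by origin was checked from how far log2 CPM lay from the mean of its group: cultures of the same origin correlated at 0.357 to 0.523, and others at -0.357 to 0.176. Deviations from a group's mean cancel out within the group. Positive same-origin correlations thus push the others to negative values, so part of the gap is built in. The pairing comes from the labels. With origin and treatment in the model, p-values rest on how unlike the doxycycline change was between origins. The spread of levels between origins enters the doxycycline test only where origin is left out. Nothing states that cultures of an origin were repeated. Intervals and limits cover counting error only.

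The members, the lists and the rule for named genes were chosen with earlier results of these data known. Named genes were the members and their transcripts, FEZF1 and FEZF1-AS1, the 5 genes nearest in shape to ZIC5 and to ZIC2, up to 4 called genes of each list with the largest change, and the 2 nearest neighbours on each side of a locus. TMTC4, HLTF and the uncalled list genes given for context were added, the uncalled ones after their values were seen. A further planned gene of the family and its neighbours are not reported here.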

Additional observations from a re-analysis of the deposited data

Results flagged for a closer look

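In 38 checks of groups of 4 cultures, 5 had 1 culture farther from the rest than Dixon's 95% limit for 4 values (0.829), a limit that chance passes in about 1 of 20 groups. ZIC4 was at 1.08 CPM in the clone 3 doxycycline culture and at 0.421 to 0.531 in the other doxycycline cultures, on 37 reads. The log2 ratio of ZIC2 to ZIC1 was 6.58 in the polyclonal control and 4.84 to 5.13 in the clone controls. QSER1 was at 259.8 CPM in the clone 6 control and at 234.7 to 239.0 in the other controls. NABP2 was at 43.9 CPM in the polyclonal control and at 57.9 to 60.5 in the others, and RHOBTB2 was at 57.3 CPM in the clone 3 doxycycline culture and at 40.4 to 42.8 in the others. The cause was not tested for any of them.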

How the results depend on the processing

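Over the 12 alternatives the fitted log2 fold change lay between -0.96 and -0.65 for ZIC5 and between -0.73 and -0.57 for ZIC2, always below 0. Without the replicate block (origin out of the model), 1 gene and 0 of the 4 members were called with doxycycline, against 1221 and 2 with it, 1155 genes had an unadjusted p under 0.05, and DESeq2 called 232 genes without the block and 1920 with it, and 2 members in both. Curated transcripts alone gave 493 genes and 1 member, ZIC2. Leaving out 1 origin in turn gave 175 (without clone 5) to 699 genes (without the polyclonal population) and 1 to 2 members, ZIC5 being lost without the polyclonal population, clone 5 or clone 6. Between origins, 6300 genes and 2 members were called. Curated transcripts gave 4054 genes and 1 member, origin alone in the model gave 2843 and 1, and leaving out 1 origin gave 2970 to 5300 genes and 0 to 1 members, 0 without the polyclonal population. Fewer cultures leave fewer degrees of freedom, and no other cause was tested. The mean change of the ZIC5 to ZIC2 log2 ratio lay between -0.24 and -0.08. ZIC4 could not be fitted with curated transcripts alone, and DESeq2's doxycycline tests gave it no adjusted p. Reads limit ZIC1 and ZIC4, at 10 to 83 a library.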
